A study of Sus scrofa with 12 samples.

Results

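NANOG tdTomato knock-in pig induced pluripotent stem cells were sequenced after culture with Activin A or with SB431542, and the comparison described here is that of the 3 Activin A libraries with the 3 SB431542 libraries, 6 of the 12 libraries of the series. The libraries were chosen by their labels alone: library 1, 2 or 3 of each treatment, paired by number. The labels do not say outright that libraries of one number came from one knock-in line, and a line is here a number: same-numbered treated libraries deviated together, and this was not checked for the untreated ones. The other 6 libraries are untreated knock-in positive cells and untreated WT PC-iPS cells, and they stand in a table of their own. The comparison asks which genes differ between cells whose Activin receptors are given their ligand and cells whose receptors are blocked.

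All 6 libraries came from PC-iPS cells, pig induced pluripotent stem cells grown in dome-shaped colonies, in which a tdTomato reporter had been placed at NANOG with CRISPR/Cas9. The study sorted the lines for tdTomato and states that cells within a culture may carry different insertions. Per its methods the treatments were made in a medium named T1, which is the LCDMV medium without LIF. The study ran its cytokine screen without feeder cells, on Matrigel. It does not state whether the sequenced Activin A and SB431542 cultures shared a substrate. The labels name only the LCDMV system for the sequenced cells and give no dose or length of treatment. Per the study's methods, feeder cells were depleted before RNA extraction by their attachment to a plate. No untreated library belongs to this table, so each difference is one between ligand and inhibitor and has no direction relative to untreated cells within it. The guide used to place the reporter is shown because the same gene is the reporter and the leading result, and it is given 5′ to 3′ without its cloning overhang.
NANOG guide: atcttcaggctgtatgttca

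Activin A is a dimeric ligand of the TGF-beta family. It binds type II receptors such as ACVR2A and ACVR2B, which activate the type I receptor ACVR1B (ALK4), and this kinase phosphorylates SMAD2 and SMAD3, which enter the nucleus with SMAD4 and bind DNA together with other factors. SB431542 is a small molecule that blocks the kinases of ACVR1B, TGFBR1 (ALK5) and ACVR1C (ALK7), and so the signal of Activin, Nodal and TGF-beta, while it spares the receptors of BMP ligands, which act through SMAD1, SMAD5 and SMAD9. In human and mouse primed pluripotent stem cells the pathway is known for holding up NANOG, and its own inhibitors, such as SMAD7, LEFTY2, FST and PMEPA1, are among its classical targets.

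Expression was given as FPKM, a count of fragments scaled to the length of the gene and to the size of the library, so that levels can be compared between genes. The 6 libraries summed to 364241 to 381586 FPKM, listed 15669 to 15827 genes above 0, and took 9.43 to 11.5% of their FPKM from 13 mitochondrial genes. Relative depth, estimated from the lowest values, lay between 0.973 and 1.13, with the first Activin A library set to 1. This estimate is weak: outside that library the commonest bin behind it held only 2.84 to 3.90% of the values used. Of the markers of undifferentiated cells, SOX2 was at 62.1 ± 6.87 FPKM (SD, n = 3) with Activin A and 69.4 ± 1.83 (SD, n = 3) with SB431542, while POU5F1 has no identifier paired with its symbol and EPCAM was below 1 FPKM in both group means (0.343 and 0.334). Only 7 of the 12 markers were tested, and SOX2 was well expressed while EPCAM was nearly absent. These levels do not by themselves bear the label out. Markers of endothelial cells summed to 0.719 to 1.26 FPKM with Activin A and 1.402 to 1.56 with SB431542, and those of blood cells to 2.84 to 3.13 and 1.998 to 2.42.

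NANOG, several HES and HEY repressors, inhibitors of the Activin pathway itself, immediate-early genes and a group of neural genes were higher with Activin A than with SB431542. Genes that were lower with Activin A included the RNA-binding factor LIN28A, the actin and adhesion genes VCL and ACTA2, genes of the integrated stress response and the glucose-responsive genes TXNIP and ARRDC4. A gene was called at a log2 fold change of at least 1 in size and a limma adjusted p of at most 0.05 on log2(FPKM + 1), with the line as a block, and rose and fell are used below of genes so called, with Activin A relative to SB431542. Of 13999 genes tested, 73 were called higher with Activin A, 0.521% of those tested, and 26 were called lower, 0.186%, which is 0.707% in either direction. The 3 Activin A values lay wholly above the 3 SB431542 values for 63 of the 73 and wholly below for 22 of the 26 (9.19% and 10.8% of all genes tested), counts that only describe the calls, since these were made on the same values. On the same scale, a log2 ratio of at least 1 was seen in all 3 lines for 45 genes, 0.321%, all of them among the 73, and one of -1 or less for 12 genes, 0.0857%, of which 11 were among the 26.

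**Figure D1:**
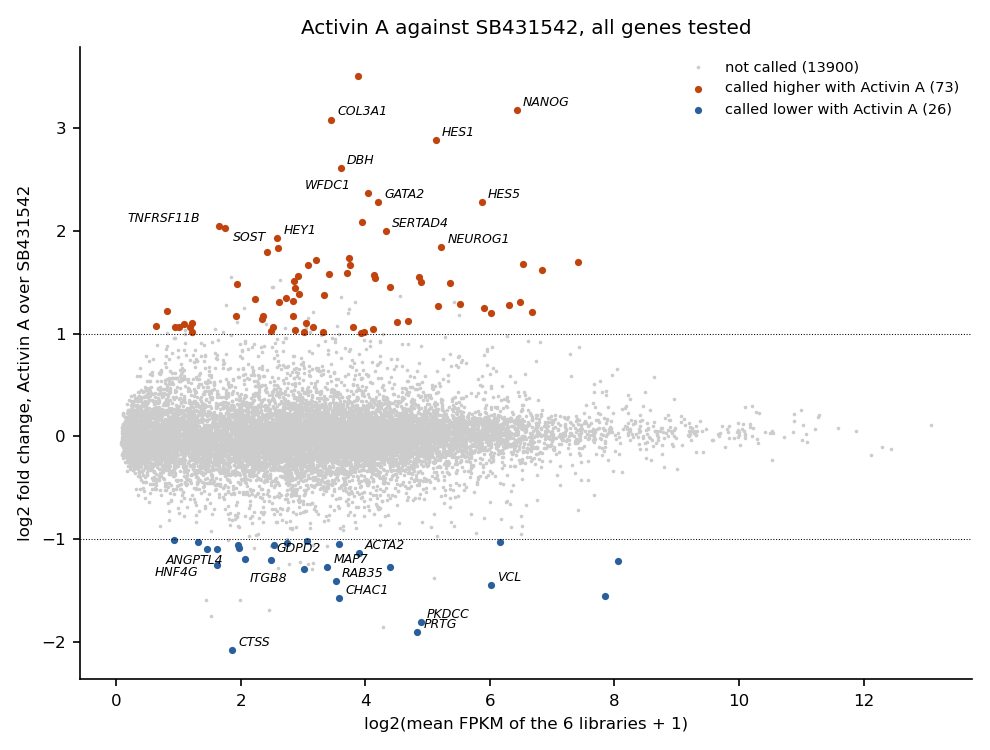
Log2 fold change of Activin A over SB431542 on log2(FPKM + 1) against the mean level of the 6 libraries, for the 13999 genes tested. Each point is a gene, the 73 called higher are orange, the 26 called lower are blue, the dotted lines mark the fold threshold and the 12 genes named in each direction carry their symbol.

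These counts depend on the block, the lines, the filter on low values and the constant added before log2. With 0.1 added in place of 1, 125 genes were called higher and 63 lower, and with 0.01, 111 and 63. Without the block limma called 8 genes higher, 0.0571%, and 5 lower, 0.0357%, all of them among the 99 of the blocked fit: the higher ones included NANOG, HES1, TNFRSF11B, SMAD7, LEFTY2, PLA2G4A and ENSSSCG00000038188, the last 2 being named after their values were seen, and VCL, RAB35, ACTA2, TXNIP and ARRDC4 were lower. Leaving out line 1 left 0 calls, although 2480 genes had an unadjusted p of at most 0.05 against 3319 in the full fit, leaving out line 2 left 25 higher and 11 lower, and leaving out line 3 left 62 and 29. With the block but no filter, 0 genes were called of 17541 tested, although 3439 had an unadjusted p of at most 0.05. None of the 99 changed its direction under any of these fits. In what follows, fits without a line kept the block and fits without a single library did not. The latter compare groups that hold unlike sets of lines, so their values are not paired differences. The labels do not say that the libraries of a treatment came from separate cultures, so the p-values measure the spread between these libraries. An exact permutation test of 3 against 3 cannot give a two-sided p below 0.1, the value of any gene whose groups do not overlap. In such bulk samples a lower share of cells with a transcript and less of it per cell cannot be told apart.

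NANOG, the homeobox factor that carries the reporter, was among the genes that rose most. It was at 109, 195 and 157 FPKM with Activin A in lines 1, 2 and 3 and at 11.8, 27.2 and 11.8 with SB431542. The groups stood far apart, line 2 was highest under both treatments, and the lowest Activin A library was far above the highest SB431542 library. The log2 fold change was 3.18 ± 0.16 SE with a limma adjusted p of 0.0107, and its log2 ratio was 3.11, 2.80 and 3.63 in the 3 lines. The untreated libraries of the same numbers, from the other table, were at 52.03, 101 and 70.4 FPKM, between the treatments in every line. RefSeq places a NANOG gene at 2 loci of Sscrofa11.1, on chromosome 1 from 169064134 to 169065292 and on chromosome 5 from 62931642 to 62939086. The files hold a single entry for it (ENSSSCG00000040403), so reads of near-identical copies may have been shared or lost in the authors' counting, and its level is uncertain to that extent.

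The gene lists were drawn up with earlier results of these data known, so their counts and medians only describe the values. The group of SMAD2/3 feedback and target genes held 37 tested members. Of these 10 rose (0.521% of all genes tested did), 1 fell (0.186%) and 26 were not called. Their median log2 fold change was 0.24, beside -0.0040 for all genes tested, and it was 0.15 without line 3. In fits with no block it was 0.11 without the second Activin A library, 0.10 without the third SB431542 library and 0.37 without the second. SMAD7, the inhibitory SMAD that competes for the activated receptor (chromosome 1, 98512800 to 98543924), was at 7.28, 8.07 and 6.67 FPKM with Activin A and at 1.75, 1.11 and 1.37 with SB431542. Every line showed the same separation, and the log2 fold change was 1.80 ± 0.13 SE with an adjusted p of 0.0163. PMEPA1, a membrane protein that takes SMAD2 and SMAD3 away from the receptor (chromosome 17, 57999287 to 58054329), was at 25.00, 15.9 and 17.9 FPKM against 6.66, 4.11 and 4.70. Its ratio was nearly the same in the 3 lines (1.76, 1.73 and 1.73 on the log2 scale), and it had one of the smallest adjusted p-values in the table (0.00831, log2 fold change 1.74 ± 0.07 SE).

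LEFTY2, a secreted inhibitor of Nodal and a direct SMAD2/3 target in other species (chromosome 10, 13849052 to 13853438), was at 1.37, 0.783 and 1.20 FPKM with Activin A and was listed at 0 in all 3 SB431542 libraries. The untreated libraries were at 0.204, 0.0663 and 0.167, so the transcript was low in all of them. Its difference of 1.07 on log2(FPKM + 1) (limma adjusted p 0.0253) is set by the constant added, and no fold is given. LEFTY2 passed the filter through its Activin A libraries alone. Its calls, with and without the block and in the list counts, therefore only describe its values. BAMBI, a decoy receptor without a kinase, was at 21.9, 33.5 and 34.7 against 8.49, 15.00 and 17.3 FPKM (1.11 ± 0.08 SE). KLF10, the TGF-beta-inducible early gene, was at 89.04, 102 and 76.9 against 31.1, 36.9 and 47.9 (1.20 ± 0.17 SE). For both, the lowest Activin A library was above the highest SB431542 library, though the margin was smaller than for NANOG.

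CCN2, connective tissue growth factor, was at 117, 189 and 207 FPKM with Activin A and 48.6, 77.2 and 40.5 with SB431542 (1.62 ± 0.23 SE, adjusted p 0.0445). GADD45B, a stress sensor induced by TGF-beta, was at 4.91, 5.11 and 2.67 against 1.05, 2.38 and 0.668 (1.17 ± 0.15 SE). COL1A2 (1.59 ± 0.14 SE) and FST (1.28 ± 0.07 SE) completed the group that rose. The member that fell was ANGPTL4, a secreted inhibitor of lipoprotein lipase, at 1.34, 1.87 and 1.15 against 4.64, 7.66 and 2.58 FPKM (-1.20 ± 0.18 SE). Of the members not called, LDLRAD4 (0.96, limma adjusted p 0.0164) and FSTL3 (0.81, 0.0266) were higher at the adjusted p alone. The TGF-beta repressor TGIF2 was lower at it (-0.42, adjusted p 0.0430), and CCN1, a relative of CCN2, differed by 0.98 (adjusted p 0.0810). NODAL, EOMES, GSC, MIXL1 and CER1 were below the filter of 0.1 FPKM in 3 libraries.

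**Figure D2:**
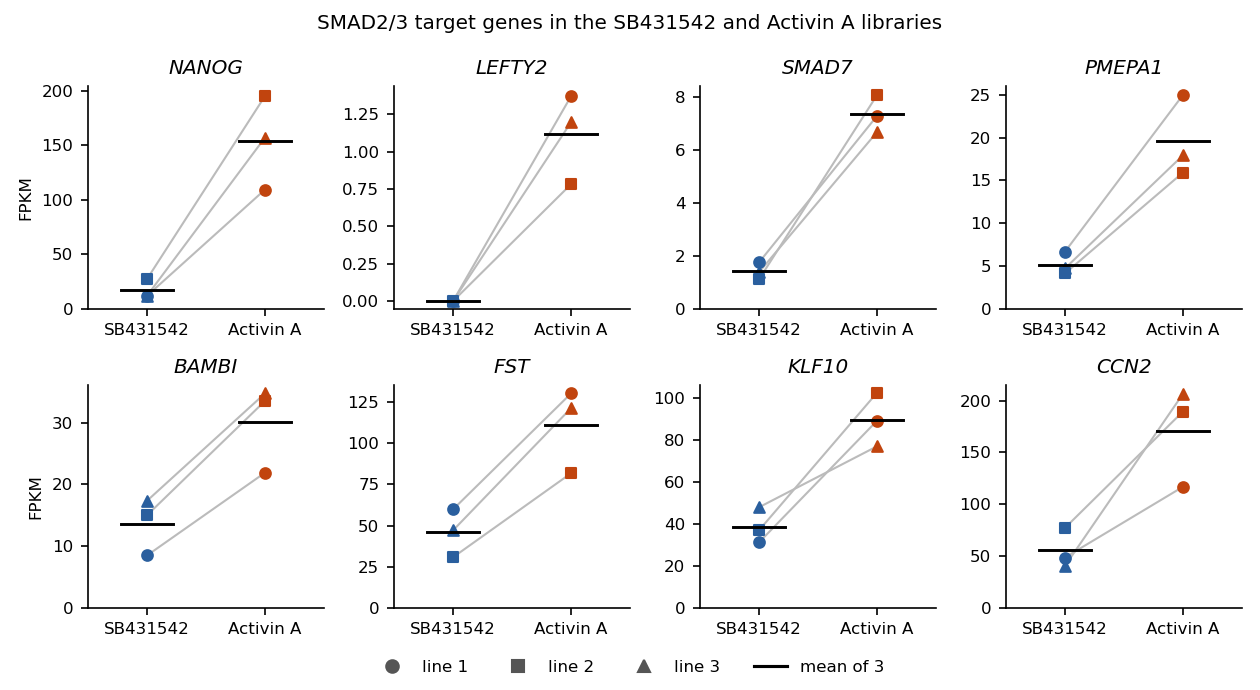
FPKM of 8 SMAD2/3 target genes in the SB431542 (blue) and Activin A (orange) libraries, each on its own linear axis. Each symbol is a library, grey lines join libraries of the same line and black bars are the means of 3. For all 8 genes the Activin A libraries lie above the SB431542 libraries, and all 8 were picked from the 10 called higher. Of the 37 members tested, 13 lay wholly above, 4 lay wholly below and 20 overlapped.

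Of 33 ligands and secreted antagonists tested, 3 rose (0.521% of all genes tested did) and 1 fell (0.186%). The median was 0.07, or 0.021 without the first SB431542 library, 0.30 without the second and 0.23 without the third. Those that rose were all inhibitors: LEFTY2, FST and SOST. FST, follistatin, which binds Activin and keeps it from its receptors, was at 130.3, 81.8 and 121 FPKM with Activin A and 59.8, 30.7 and 47.1 with SB431542 (adjusted p 0.0121). SOST, an antagonist of WNT co-receptors that also binds BMPs, was at 3.64, 8.35 and 1.498 against 0.0348, 0.554 and 0. Line 2 had the highest SOST values under both treatments, and the log2 fold change was 2.03 ± 0.25 SE. With values so near 0 its size depends on the constant added, and it ranged from 1.54 to 5.83 over the alternative settings. TGFB2, the ligand that fell, was at 1.91, 1.06 and 1.43 against 5.58, 2.57 and 4.93 FPKM (-1.09 ± 0.13 SE, adjusted p 0.0321). FSTL1, the most abundant member, and DCN were not called, with adjusted p-values of 0.0936 and 0.0844. A further 4 antagonists passed the adjusted p alone and were higher with Activin A, as 1.66% of all genes tested were with or without the fold, namely the BMP antagonist NOG (0.95), FSTL3 (0.81), BMPER (0.65) and NBL1 (0.64). The difference of NBL1 was 0.29 without the second SB431542 library, 0.32 without the third Activin A library and 0.96 without the second Activin A library.

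Of 24 receptors, co-receptors and SMADs tested, SMAD7 rose (0.521% of all genes tested did) and none was called lower. The median was -0.15, or -0.065 without line 1, -0.089 without line 2 and -0.054 without the first SB431542 library. SMAD2 was at 5.34, 5.003 and 4.46 FPKM with Activin A and 7.03, 7.22 and 5.45 with SB431542, each Activin A library below each SB431542 library, with a log2 fold change of -0.34 ± 0.09 SE and an adjusted p of 0.114. SMAD3 was at 24.2, 20.4 and 24.7 against 31.4, 24.6 and 29.5, with overlapping groups (-0.29 ± 0.06 SE, adjusted p 0.0767). SMAD4 was at 20.3, 22.6 and 19.97 against 22.9, 24.8 and 24.8 (-0.20 ± 0.06 SE). TGFBR1, a kinase that SB431542 blocks, was at 34.6, 27.7 and 33.2 FPKM against 34.6, 23.4 and 33.4, a difference of 0.08 that turned to -0.0033 when line 2 was left out. ACVR1C and the co-receptor gene TDGF1 were below the filter. Of the 24, 7 lay wholly below and 2, SMAD7 among them, wholly above in the Activin A libraries, beside 10.8% and 9.19% of all genes tested.

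BMP readout genes, those that SMAD1 and SMAD5 are known to induce, had a median of 0.63, with 6 of 16 called higher (0.521% of all genes tested), none called lower and 14 of 16 positive (49.1% of all genes tested). The median was 0.23 without the second Activin A library, 0.35 without the first SB431542 library and 1.09 without the second SB431542 library. The 6 that rose were GATA2, TFAP2C, HEY1, ID2, SMAD7 and BAMBI. All but ID2 are shared with other lists: GATA2 and TFAP2C with trophectoderm, HEY1 with Notch, SMAD7 and BAMBI with SMAD2/3 targets. SMAD6, an inhibitory SMAD, was the lowest member and was not called (-0.55 ± 0.17 SE, limma adjusted p 0.147). It was at 3.08, 2.06 and 3.70 FPKM with Activin A and 5.81, 4.42 and 4.02 with SB431542, wholly below. GATA2, a zinc-finger factor of blood and trophoblast, was at 26.3, 38.9 and 21.7 FPKM with Activin A and 2.15, 10.8 and 4.74 with SB431542 (2.28 ± 0.28 SE, adjusted p 0.0340). ID2, an inhibitor of bHLH factors, was at 56.9, 84.3 and 49.4 against 20.3, 41.99 and 17.8 (1.28 ± 0.11 SE). The untreated libraries were at 19.5, 28.1 and 19.3 for ID2, below the SB431542 values in lines 1 and 2. TFAP2C was at 6.93, 17.8 and 4.21 against 1.27, 6.36 and 1.01 (1.51 ± 0.12 SE), rising in each line although the groups overlapped, since line 2 was high under both treatments, and its difference was 1.00 without the second Activin A library. ID1, the classical BMP target, was at 17.95, 24.5 and 13.5 against 4.31, 15.3 and 4.34 and was not called (1.31 ± 0.23 SE, adjusted p 0.0619), with line 2 of the SB431542 group inside the range of the Activin A group. ID3, the most abundant of the list, was not called either (means of 337 and 307 FPKM, adjusted p 0.312).

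Of the HES and HEY repressors, bHLH-type factors best known as Notch targets, 3 rose. HES1 (chromosome 13, 131135970 to 131137865) was at 43.9, 75.4 and 62.9 FPKM with Activin A and 6.599, 8.94 and 6.20 with SB431542 (2.88 ± 0.12 SE, adjusted p 0.00831). HES5 was at 77.8, 52.4 and 157 against 18.2, 8.61 and 30.3 (2.28 ± 0.09 SE, adjusted p 0.00831), and HEY1 at 8.72, 10.8 and 6.01 against 0.872, 2.02 and 1.57 (1.93 ± 0.19 SE, adjusted p 0.0266). In each, every Activin A library was above every SB431542 library. HES6, HES4 and HEY2 passed the adjusted p but not the fold (0.58, 0.68 and 0.91). Of all 29 Notch, HES and HEY genes tested, these 3 rose (0.521% of all genes tested did) and none was called lower. The median of the 29 was 0.07, with a range of 0.024 to 0.17 when the third or the second Activin A library was left out. It was 0.25 over the 26 that passed a filter of 1 FPKM. The ligand JAG1 and the glycosyltransferase LFNG were not called (adjusted p 0.114 and 0.254), and NOTCH1 has no identifier paired with its symbol.

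Of 39 immediate-early genes, whose transcription answers signals without new protein, 8 rose (0.521% of all genes tested did) and none was called lower. The median of the list was 0.31, or 0.49 without the third SB431542 library. EGR1, a zinc-finger factor, was at 151, 328 and 304 FPKM with Activin A and 53.4, 69.1 and 117 with SB431542 (1.69 ± 0.18 SE). FOS, a subunit of AP-1, was at 111, 191 and 119 against 37.9, 50.98 and 38.03 (1.68 ± 0.08 SE, adjusted p 0.0107). Both stood clear of the inhibitor group in each line, and the untreated FOS values (47.1, 69.3 and 48.2) were close to those with SB431542. FOSB (1.46), EGR2 (1.38) and the kinase PIM1 (1.31) rose too, beside CCN2, KLF10 and GADD45B, which this list shares with the SMAD2/3 targets. A further 7 were higher at the adjusted p alone: EGR3 (1.00, just under the fold), PTGS2 (0.85), JUN (0.80), BTG2 (0.77), IER2 (0.59), DUSP1 (0.48) and MYC (0.40). Of all genes tested, 1.66% were higher at the adjusted p with or without the fold. Without the first SB431542 library EGR3 was at 0.62 and BTG2 at 0.43, and DUSP1 was at 0.23 without the second SB431542 library and at 0.76 without the second Activin A library. Of 23 genes of FGF and ERK feedback, 0 were called by limma, while 3, all lower with Activin A, passed the adjusted p alone: ETV5 (-0.89), FGF2 (-0.82) and FGF19 (-0.78, or -0.45 without the third Activin A library and -0.50 without the second SB431542 library). Of 49 WNT genes 0 were called, the median was 0.10 (0.020 without the first SB431542 library and 0.16 without the first Activin A library), and SFRP2, a secreted WNT antagonist, was lower at the adjusted p alone (-0.83). By limma's unadjusted p of at most 0.05, 15 of the 23 and 15 of the 49 were included, beside 23.7% of all genes tested.

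Of 30 pluripotency genes tested, NANOG rose (0.521% of all genes tested did) and LIN28A fell (0.186%). The median was 0.05, a value whose sign changed in 4 of 18 alternative settings. With a pseudocount of 0.1 or 0.01 in place of 1, 2 of the list were called higher. LIN28A, an RNA-binding protein that blocks let-7 maturation, was at 90.02, 200.04 and 67.5 FPKM with Activin A and 327, 498 and 192 with SB431542. It was lower with Activin A in every line (-1.85, -1.31 and -1.50 on the log2 scale), though line 2 was so much higher than the others that the groups overlapped (-1.55 ± 0.11 SE, adjusted p 0.0150). TRIM71 (-0.81), NR6A1 (-0.88), SALL1 (-0.73) and ETV5 were also lower at the adjusted p alone, and MYC was higher at it (0.40, adjusted p 0.0438). SOX2, OTX2 and KLF4 were not called, with adjusted p-values of 0.203, 0.183 and 0.227. The summed markers of undifferentiated cells were 297 to 499 FPKM with Activin A and 320.2 to 642 with SB431542.

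Neural and neuronal genes had a median of 0.66, which was 0.41 without the third Activin A library, and 36 of 41 were positive, against 49.1% of all genes tested. Of the 41, 7 rose (0.521% of all genes tested did) and none was called lower. With a pseudocount of 0.1 or 0.01, 14 or 10 were called higher. Without line 2 the count was 2, and without line 1 or without the block it was 0. NEUROG1, a proneural bHLH factor, was at 41.1, 40.2 and 88.5 FPKM with Activin A and 10.4, 8.88 and 28.9 with SB431542 (1.84 ± 0.10 SE, adjusted p 0.0121). Line 3 had the highest NEUROG1 level under both treatments, and the same held for EBF2 (10.2, 12.1 and 16.7 against 2.33, 2.15 and 5.94, log2 fold change 1.72 ± 0.15 SE) and INSM1 (16.4, 16.2 and 45.9 against 6.51, 5.60 and 10.4, 1.54 ± 0.17 SE), both transcription factors. GAP43, a growth cone protein, was at 24.3, 18.1 and 33.2 against 5.88, 6.22 and 11.8 (1.57 ± 0.12 SE). SEZ6 (1.34), BCL11A (1.31) and the imprinted gene NNAT (1.25) were called as well. The abundant members STMN2, SOX11, TUBB3 and ELAVL3 were not called, with log2 fold changes of 0.92, 0.64, 0.83 and 0.75, of which the last 2 passed the adjusted p, and TUBB3 was at 0.47 without the third Activin A library. Markers of neurons are not separate from this group, since STMN2, TUBB3 and ELAVL3 are in both. The 9 markers summed to 281 to 382 FPKM with Activin A and to 154 to 230.0 with SB431542, ranges that do not overlap. Of them 0 of 9 were called, and 6 had an unadjusted p of at most 0.05 in limma (23.7% of all genes tested did). RBFOX3 and SYN1, which mark mature neurons, were below 1 FPKM in both means. The part of these markers in the result was not tested.

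Of 34 mesendoderm genes listed, 17 passed the filter, beside 13999 of all 24358 genes. None rose, and HNF4G, a nuclear receptor, fell (0.186% of all genes tested did). HNF4G was at 0.871, 1.31 and 0.220 against 3.34, 4.84 and 1.84 FPKM (log2 fold change -1.26 ± 0.08 SE). The median of the list was 0.33. That median was 0.061 without line 3, 0.035 without the third Activin A library and 0.17 without the second SB431542 library. TBXT, EOMES, MIXL1, GSC, FOXA2 and SOX17 were all below the filter, GATA6 passed the adjusted p alone (0.88, 0.0455) and CXCR4 did not (0.0569). Of 19 trophectoderm and epithelial genes, 3 rose (0.521% of all genes tested did) and 1 fell (0.186%). Those that rose were GATA2, TFAP2C and the claudin CLDN8 (1.48). The one that fell was KRT8, an epithelial keratin, at 100.04, 334 and 35.3 FPKM with Activin A and 200.1, 835 and 90.4 with SB431542 (-1.21 ± 0.08 SE). As for LIN28A, each line fell and line 2 was far above the others, so that without the block the difference was -0.34 without the second SB431542 library, -0.43 without the third Activin A library, -1.94 without the third SB431542 library and -2.04 without the second Activin A library. TEAD4 was lower at the adjusted p alone (-0.77).

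Of 50 genes of collagens and matrix, 3 rose (0.521% of all genes tested did) and none was called lower. The median was 0.04, or -0.014 without the second Activin A library and 0.18 without the second SB431542 library. COL3A1, a fibrillar collagen (chromosome 15, 93556914 to 93595678), was at 6.57, 7.47 and 42.9 FPKM with Activin A and 0.0156, 0.215 and 2.73 with SB431542. Line 3 was several times higher than lines 1 and 2 under each treatment and also without one (0.771, 3.32 and 23.2), and the log2 fold change was 3.08 ± 0.17 SE (adjusted p 0.0121). COL1A2 was at 21.3, 11.2 and 12.7 against 4.77, 3.24 and 4.66, and FBLN2, fibulin 2, at 8.56, 11.6 and 9.15 against 2.51, 6.07 and 4.89 (1.02 ± 0.15 SE). MMP2, an abundant member, passed the adjusted p alone (0.60). COL3A1 and COL1A2 are also fibroblast markers, and feeder cells are commonly fibroblasts. The 16 fibroblast markers, 12 of them tested, summed to 456 to 539 FPKM with Activin A and 502 to 589.5 with SB431542, most of it VIM. Of the 12, 7 were positive, COL3A1, COL1A2 and COL6A1 (0.85) were higher at the adjusted p and VIM was lower (-0.29). DCN, a matrix proteoglycan, was at 14.4, 25.2 and 11.54 FPKM against 2.94, 12.6 and 6.76 and was not called, and LOX and FBN1 were at means of 35.4 and 5.42 FPKM against 38.9 and 5.54. COL1A1 was at 0.378 and 0.471 FPKM and PDGFRA at 0.177 and 0.190, and LUM, POSTN and FAP were below the filter. Their part in the rise of the collagens was not tested.

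The genes that fell most had varied roles. CTSS, a lysosomal cysteine protease, was at 0.122, 0.144 and 0.884 FPKM with Activin A and 3.52, 7.22 and 3.95 with SB431542 (-2.08 ± 0.28 SE, adjusted p 0.0412), and its untreated values (0.143, 0.215 and 1.03) were close to those with Activin A. PRTG, protogenin, a surface receptor of the early embryo, was at 11.6, 16.1 and 6.12 against 51.97, 52.99 and 26.96 (-1.90 ± 0.10 SE), and PKDCC, a secreted kinase, at 7.75, 18.7 and 5.29 against 22.2, 98.8 and 19.2 (-1.81 ± 0.19 SE, or -1.08 without the second SB431542 library). Both stood below the inhibitor group in all 3 lines. VCL, vinculin, which links adhesions to actin, was at 38.9, 36.9 and 26.1 against 95.97, 99.2 and 84.7 FPKM (-1.45 ± 0.08 SE, adjusted p 0.0138). ACTA2, smooth muscle actin, was at 9.28, 7.52 and 8.17 against 20.6, 18.7 and 18.9 (-1.13 ± 0.07 SE). The untreated values of VCL (67.9, 73.2 and 52.97) and ACTA2 (17.5, 12.2 and 11.4) lay between the treatments in every line. ACTA2 is also a mural cell marker, and the 10 markers of that type summed to 332 to 447 FPKM with Activin A and 356 to 473 with SB431542, mostly TAGLN, with DES below the filter. Their part in the result was not tested. ITGB8, an integrin subunit that helps to release latent TGF-beta, the microtubule protein MAP7 and the phosphodiesterase GDPD2 fell as well, with log2 fold changes of -1.29, -1.28 and -1.20.

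RAB35, a GTPase of endocytic recycling (chromosome 14, 40124318 to 40141261), had levels near 5 or near 16 FPKM in these and the untreated libraries. It was at 5.31, 5.57 and 5.06 FPKM with Activin A and 15.9, 15.6 and 15.7 with SB431542, with almost no spread within a treatment (-1.41 ± 0.07 SE, adjusted p 0.0107). The untreated libraries were at 5.20, 15.6 and 16.02, the first close to the Activin A libraries and the others close to the SB431542 libraries.

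The integrated stress response is a set of genes that ATF4 controls when translation is reduced. Of 28 tested, 0 rose and 2 fell (0.186% of all genes tested did). With these 2, 10 were lower at the adjusted p whatever the fold (1.21% of all genes tested were). In all, 25 of 28 were negative (49.1% of all genes tested were positive). The median was -0.41, which was -0.64 without the third SB431542 library. CHAC1, which degrades glutathione, was at 4.96, 6.65 and 3.39 FPKM with Activin A and 17.3, 22.1 and 11.6 with SB431542 (-1.58 ± 0.07 SE, adjusted p 0.00968). TRIB3, a pseudokinase that binds ATF4 and AKT, was at 0.817, 1.17 and 0.817 against 3.18, 4.05 and 2.32 (-1.10 ± 0.11 SE). The serine and asparagine synthesis genes PSAT1 (-0.87, adjusted p 0.0336), PSPH (-0.84) and ASNS (-0.80) did not reach the fold but passed the adjusted p, as did ATF4 itself (-0.35), whereas PHGDH did not (-0.62, adjusted p 0.0537).

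In the list of glucose and fatty acid response genes, 0 of 25 rose and 3 fell (0.186% of all genes tested did). The median was -0.16. TXNIP, an arrestin-like inhibitor of thioredoxin and glucose uptake, was at 0.626, 0.730 and 0.882 FPKM against 2.74, 2.95 and 2.52 (-1.10 ± 0.10 SE), and its relative ARRDC4 at 2.70, 2.78 and 2.84 against 6.62, 7.35 and 6.66 (-1.06 ± 0.09 SE). Both had narrow groups and passed with and without the block, and ANGPTL4 was the third. PDK4, which inhibits pyruvate dehydrogenase, was lower at the adjusted p alone (-0.80).

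Another 3 lists held no called gene. Motile cilium genes had a median of -0.17, or -0.074 without the third SB431542 library, and 36 of 43 were negative, 12 of them with all Activin A values below all SB431542 values (10.8% of all genes tested were so), but only the dynein chain gene DNAI2 passed limma's adjusted p (-0.81) and 15 had an unadjusted p of at most 0.05, beside 23.7% of all genes tested. The 26 antiviral genes had a median of -0.07, or -0.13 without the second SB431542 library, with 10 at an unadjusted p of at most 0.05 in limma, again beside 23.7%, and none past the adjusted p. The 35 cell cycle and MYC genes had a median of 0.03, or 0.0067 without line 2 and 0.092 without the first SB431542 library, and 9 were past the unadjusted p in limma, as 23.7% of all genes tested were. Those past the adjusted p were CDKN1C, an inhibitor of cyclin-dependent kinases (0.96, 0.0327), and the MYC family members MYCL (0.47, or 0.26 without the third Activin A or the second SB431542 library) and MYC (0.40).

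**Figure D3:**
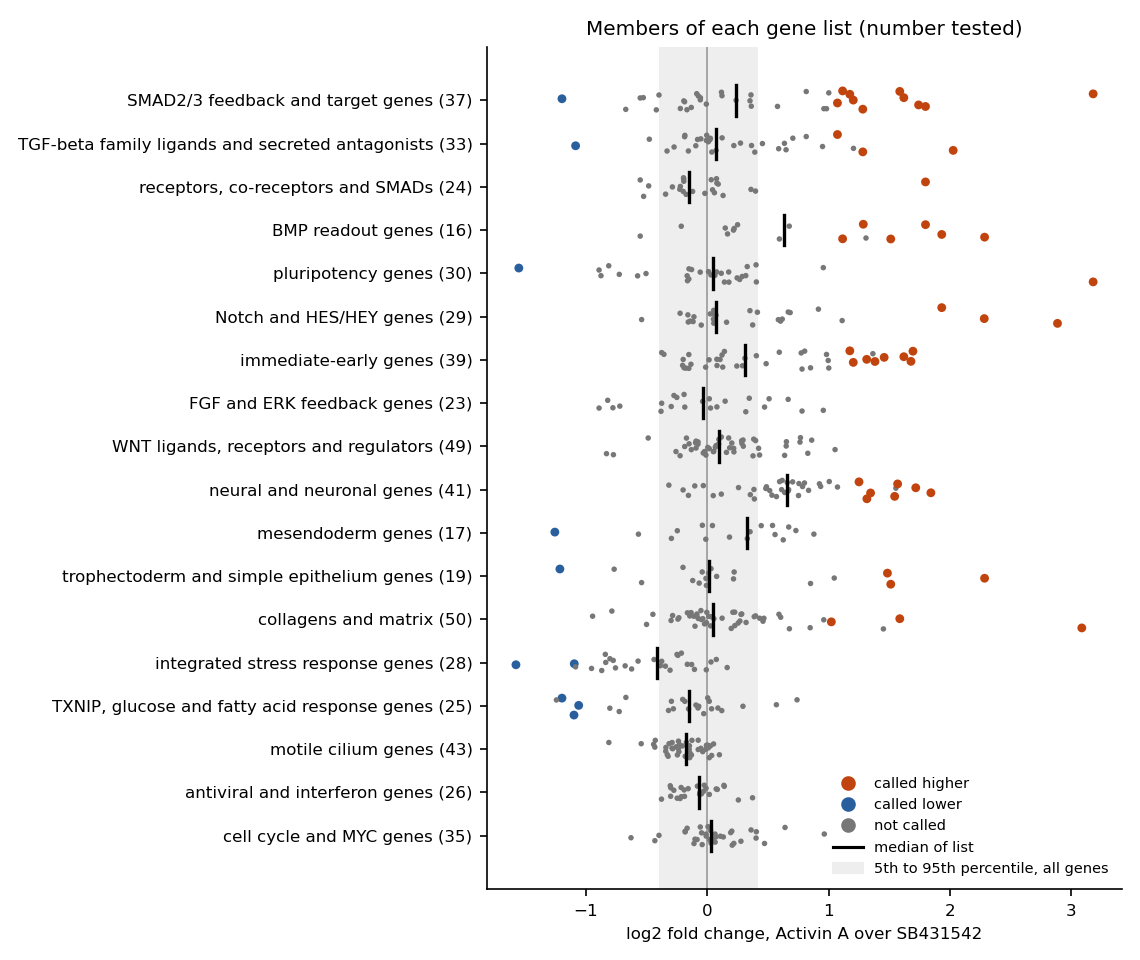
Log2 fold changes of Activin A over SB431542 for the tested members of 18 gene lists, with the number tested in brackets. Points are genes (orange called higher, blue called lower, grey not called), black bars are list medians, the grey line is the median of all genes tested and the shaded band spans their 5th to 95th percentile, -0.39 to 0.41.

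Several of the genes that rose most belong to none of these lists. DBH, dopamine beta-hydroxylase, which makes noradrenaline, was at 23.6, 27.2 and 9.60 FPKM with Activin A and 1.998, 2.09 and 2.48 with SB431542 (2.61 ± 0.33 SE, adjusted p 0.0351). WFDC1, a secreted protein with a protease-inhibitor fold, was at 18.9, 23.8 and 36.6 against 2.02, 5.51 and 5.85 (2.37 ± 0.16 SE), and SERTAD4 at 34.5, 22.9 and 35.9 against 5.52, 5.58 and 10.5 (2.00 ± 0.16 SE). All 3 were higher in each line. TNFRSF11B, osteoprotegerin, a decoy receptor for RANKL, was at 3.77, 2.67 and 5.90 against 0.186, 0.126 and 0.283 FPKM (2.05 ± 0.15 SE), below 1 FPKM in every SB431542 library. Of the 73 genes called higher, 12 have no symbol, among them ENSSSCG00000032706, a gene picked after its values were seen, which was at 9.03, 12.7 and 56.7 FPKM with Activin A and at 0, 0 and 4.34 with SB431542 and so was listed at 0 in 2 libraries.

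The untreated knock-in libraries were set beside both treatments line by line, with no test, since they stand in another table and the labels do not settle whether their medium was the same. For 65 of the 73 genes called higher and 23 of the 26 called lower, the untreated value lay between the Activin A and the SB431542 value of its line in all 3 lines, as it did for 13.3% of all genes tested. The called genes were chosen for a wide gap between the treatments, in which another value falls more readily, so these counts are a description. On log2(FPKM + 1), the untreated level of the genes called higher lay at a median of 0.526 of the way from SB431542 to Activin A, and that of the genes called lower at 0.471. Of the 73, 41 lay nearer to Activin A, NANOG among them, and 32 nearer to SB431542, HES1, SMAD7 and FOS among them, and of the 26, 11 lay nearer to Activin A and 15 nearer to SB431542.

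**Figure D4:**
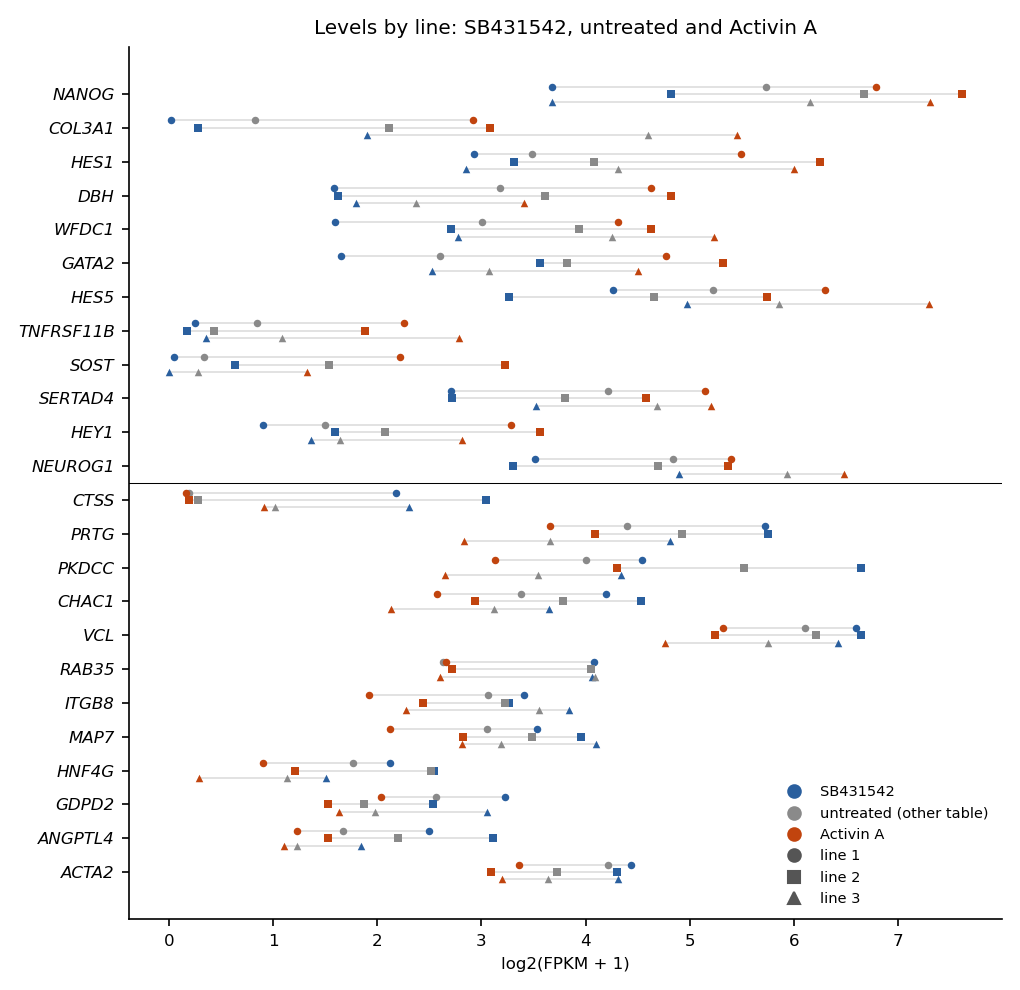
Levels as log2(FPKM + 1) of the 12 genes named in each direction, higher above the line and lower below it, in the SB431542 (blue), untreated (grey, from the other table) and Activin A (orange) libraries of lines 1 to 3 (circle, square and triangle). Grey bars join the libraries of a line, and for 23 of the 24 genes the untreated library lies between the treated ones in every line, RAB35 being the exception.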

How the data were processed

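Poly(A) RNA libraries of 12 pig samples were sequenced, and the 3 Activin A and 3 SB431542 libraries are compared here. The authors deposited FPKM per gene (24358 genes), made per the study's methods and the submitters' processing notes by aligning trimmed reads to Sscrofa11.1 with HISAT2 2.0.4 and quantifying with StringTie 1.3.3. The notes also name bcl2fastq 2.17.1.14, featureCounts 1.6.4 and DESeq2. FPKM is scaled to library and gene length and holds no read counts, so depth is unknown and no counting error is given.

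Genes with at least 0.1 FPKM in 3 of the 6 libraries were kept, 1 was added before log2, and limma 3.58.1 (R 4.3.3) was fitted with a variance trend and the replicate number as a block, two-sided, with Benjamini-Hochberg adjustment over 13999 genes. A fold change on log2(FPKM + 1) understates the change of low genes. The study names no model formula, and its thresholds were used. The labels number the libraries of each treatment alike but do not state that a number is one line, so the pairing rests on the values: same-numbered treated libraries deviated together from their group means across genes (r = 0.400, 0.587 and 0.535).

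Symbols came with the deposited values for 17451 genes and from a reference of gene names for 965, and coordinates from RefSeq. Named genes are, for either direction, the 12 called genes that changed most and have a symbol and separate groups, the genes that the paper names for these libraries, and of each list the called members and up to 4 abundant ones. Other genes, such as those past the adjusted p alone, were named after their values were seen. The members and lists were chosen with earlier results of these data known, among them the genes that the study lists as changed. Counts of called members beside the share of all genes tested are therefore not independent of these data. Lists are described by counts and medians only. The script was tested on simulated data. Promoter motifs were not examined because no promoter sequence was at hand. Plots were made in Python 3.11.15 with pandas 2.3.3 and matplotlib 3.10.9.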

Additional observations from a re-analysis of the deposited data

How the results depend on the processing

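Without the replicate block, limma called 8 genes higher and 5 lower in place of 73 and 26, and 1797 genes in place of 3319 had an unadjusted p of at most 0.05. With the block, leaving out 1 line at a time gave 0 to 62 higher and 0 to 29 lower. Line 1 gave the 0 (2480 genes at the unadjusted p). Line 2 gave 25 and 11. Leaving out 1 library without the block gave 0 to 4 higher and 0 to 1 lower, with 1341 to 1712 genes at the unadjusted p. Without the filter on low values 17541 genes were tested and limma called 0 in each direction, with 3439 at the unadjusted p, a smallest adjusted p of 0.0511 and NANOG at 0.0595. A pseudocount of 0.1 gave 125 higher and 63 lower, one of 0.01 gave 111 and 63, and TPM gave 95 and 47. The adjusted p alone gave 233 and 170. Median-ratio scaling, quantile normalization, the filter of 1 FPKM and the fit with no variance trend gave 65 to 73 higher and 24 to 26 lower. The median of all genes moved to -0.028 at most under another scaling. TGFBR1, which was not called, turned from 0.08 to -0.0033 without line 2 and to -0.098 without the second SB431542 library, and was 0.12 without line 3. None of the 99 called genes reversed in any of the 18 settings that gave it a value, the filter of 1 FPKM giving one for 94 of them. NANOG ranged from 2.95 to 3.56 (adjusted p 0.0089 to 0.20). The difference of COL3A1 ranged from 2.27 to 5.68 and that of LEFTY2 from 0.98 to 6.78, the upper ends at the smallest pseudocount. At that pseudocount the median was 0.48 for SMAD2/3 targets, 1.03 for BMP readout genes, 1.09 for neural genes, 0.26 for WNT genes, 0.19 for Notch genes and -0.38 for cilium genes. Median signs were stable in all settings for the SMAD2/3, BMP readout, Notch, immediate-early, neural and stress response lists, and not for pluripotency, FGF, trophectoderm and matrix genes. With the filter of 1 FPKM the median was 0.36 for SMAD2/3 targets, 0.27 for ligands and antagonists and -0.071 for receptors and SMADs. It was 0.25 for Notch genes, 0.18 for WNT genes, -0.27 for cilium genes, -0.19 for antiviral genes and 0.0033 for matrix genes. At a pseudocount of 0.1, 7 ligands and antagonists were called higher in place of 3. Read depth is unknown, so low values such as those of LEFTY2 have no counting limit. The promoter motif count was not run. The cause of these shifts was not tested.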

Other observations

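Among called genes that belong to no list, chosen here after their values were seen, were a microRNA gene and several signalling and surface genes. The gene listed as ssc-mir-9-2, a gene of the neural miR-9 family, was at 1.98, 1.46 and 2.31 FPKM with Activin A and 0.397, 0.148 and 0.547 with SB431542 (1.10 ± 0.07 SE, limma adjusted p 0.0150). The axon guidance receptor DCC was at 2.59, 3.97 and 10.6 against 0.335, 1.14 and 3.54 (1.33 ± 0.09 SE), and the peptide hormone gene CCK at 2.42, 1.13 and 1.62 against 0.590, 0.0554 and 0.248 (1.06 ± 0.07 SE). In DCC line 3 was highest under both treatments and the groups overlapped, with a difference of 0.85 without the third Activin A library, while in the other two they did not. SOCS1, a feedback inhibitor of JAK kinases, was at 6.28, 9.77 and 15.03 against 2.001, 3.40 and 2.73 (1.56 ± 0.19 SE), and EFNA1, an ephrin ligand, at 14.4, 25.8 and 14.9 against 3.12, 8.92 and 4.92 (1.59 ± 0.12 SE). PRDM16, a zinc-finger regulator, was at 2.78, 0.873 and 2.97 against 0.402, 0.0845 and 0.854 (1.11 ± 0.14 SE). All 3 were higher with Activin A in each line.

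PLA2G4A, a phospholipase that releases arachidonic acid, was at 2.34, 1.98 and 1.98 FPKM with Activin A and 0.531, 0.510 and 0.567 with SB431542 (1.01 ± 0.08 SE, adjusted p 0.0190). On the lower side, LMOD1, an actin nucleator of smooth muscle, was at 1.23, 0.995 and 2.30 against 4.17, 2.58 and 6.14 (-1.06 ± 0.11 SE), and IGDCC3, a relative of PRTG, at 40.9, 37.9 and 56.9 against 84.5, 66.8 and 137 (-1.03 ± 0.09 SE). TFEC, a bHLH factor related to MITF, was at 0.296, 0.403 and 0.0555 against 1.90, 2.01 and 0.798 (-1.01 ± 0.11 SE). Each of these stood apart between the treatments in all 3 lines.

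A few called genes had untreated values outside the span of the treatments. GADD45B was at 0.966, 1.89 and 0.911 FPKM without treatment, below the SB431542 values in lines 1 and 2. BRINP1 was at 6.54, 11.2 and 5.64 untreated, 13.6, 19.4 and 4.94 with Activin A and 5.45, 7.33 and 2.98 with SB431542. These values come from another table and were not tested.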
